A study of Oryza sativa with 12 samples.

Results

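A set of 6 SPX-domain genes was followed through the rice root libraries, namely SPX1, SPX2, SPX3, SPX4, SPX5, and SPX-MFS3. They were chosen by their gene identifiers and carry the Pfam SPX domain (PF03105) in the deposited gene descriptions. They are 6 of 15 genes whose description holds this domain, and 6 of 41620 genes in the expression table. The roots came from 3-wk-old seedlings of the cultivar Nipponbare (WT) and of Os1400-12SIII (Os1400), a CRISPR/Cas9 line made in Nipponbare with biallelic homozygous disruption of Os01g0701400, a MAX1 homolog that encodes a cytochrome P450 of strigolactone biosynthesis. For 2 wk the seedlings stood in nutrient solution, with a Pi supply of 0.4 mM in the +Pi groups and 0.004 mM in the low-Pi groups. WT +Pi, Os1400 +Pi, WT low-Pi, and Os1400 low-Pi had 3 libraries each, 12 in all. Os1400 stands here for 1 line, so an effect of the mutated gene and any other difference of that line cannot be told apart.

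SPX domains bind inositol pyrophosphates, whose level follows the Pi status of the cell. In Pi-sufficient rice, SPX proteins bound to these ligands hold the transcription factor PHR2 away from its target promoters, and when Pi is scarce PHR2 is released and activates Pi starvation genes, among them several SPX genes. The rice SPX genes therefore serve both as a brake on the Pi starvation response and as a readout of it. SPX1 and SPX2 encode nuclear proteins that bind PHR2, SPX4 encodes a protein that also keeps PHR2 in the cytosol, SPX3 and SPX5 encode closely related repressors of the response, and SPX-MFS3 encodes a Pi transporter of the vacuolar membrane.

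In the deposited coordinates, whose genome build is not given in the sources used here, SPX1 (Os06g0603600) lies on chromosome 6 from 23875437 to 23879965 on the minus strand. SPX2 (Os02g0202200) lies on chromosome 2 from 5706636 to 5709119, SPX3 (Os10g0392600) on chromosome 10 from 13088845 to 13091075, and SPX4 (Os03g0827500) on chromosome 3 from 34756011 to 34758767, all on the plus strand. SPX5 (Os03g0406100) is on the plus strand of chromosome 3 from 16645244 to 16646434, and SPX-MFS3 (Os06g0129400) on that of chromosome 6 from 1554861 to 1561163. The first 5 genes have transcript lengths of 1072 to 1386 bases in the tables, and SPX-MFS3, which also carries a major facilitator domain, has 2760. Of the 6 genes, SPX1 and SPX3 each overlap 1 gene on the opposite strand. Whether counting used strand is not given in the sources used here, so reads of these pairs cannot be told apart, but both partners (Os06g0603800 and Os10g0392650) were listed at 0 FPKM in all WT and +Pi libraries and at no more than 0.37 FPKM in low-Pi Os1400.

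FPKM, the fragment counts scaled to transcript length and library size, are given as deposited. The deposited FPKM also carry 1 constant per library, of 1.04 to 1.36 in low-Pi WT and 0.902 to 0.991 elsewhere. For the same share of counts, FPKM are therefore higher in low-Pi WT, also those of the reference genes below. Total counts ranged from 28271749 to 41078078 per library. The mutated gene was listed at 0 FPKM in all 12 libraries, so it does not check the genotype labels. The low-Pi WT libraries stood apart from the rest, with 17711 to 22077 genes detected against 27191 to 30375 elsewhere. The summed level of 4 reference genes, among them actin 1 and ubiquitin 5, was also higher there. It was 4535 to 6169 FPKM, against 2240 to 2736 FPKM at +Pi and 2427 to 3601 FPKM in low-Pi Os1400. Ubiquitin 5 alone of the 4 overlapped, at 748 to 1434 FPKM in low-Pi WT and 850 to 1303 FPKM in low-Pi Os1400. The root markers Lsi1, Lsi2, and RCc3 summed to at least 2041 FPKM in every library, but they did not move together. In Os1400, Lsi1 ranged from 1200 to 1420 FPKM at +Pi and from 180 to 500 FPKM at low-Pi. Lsi2 was also lower at low-Pi (123 to 333 against 1030 to 1199 FPKM), whereas RCc3 was higher (1892 to 2889 against 870 to 1359 FPKM). In WT, the ranges at +Pi and low-Pi overlapped for each of them. The 7 markers of green tissue summed to 11.8 to 48.2 FPKM, highest in low-Pi WT. A chlorophyll a/b binding gene, Os01g0720500, held most of the green sum (23.6 to 45.5 FPKM in low-Pi WT), while CAB1R, Lhcb2, and PsbO were at 0 in all 3 low-Pi WT libraries. The cause of these differences and their part in the results below were not tested. Fewer cells of a type and less RNA per cell cannot be told apart in whole roots. Nothing in the labels says that the libraries of a group came from separate cultures, so p-values measure the spread between libraries only.

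Under low-Pi, SPX1, SPX2, SPX3, and SPX5 rose and SPX-MFS3 fell in both genotypes, whereas SPX4 stayed within its spread. SPX5 reached the highest FPKM of the members. It measured 4.99, 2.70, and 4.50 FPKM in the WT +Pi libraries and 1487, 781, and 1955 FPKM in the WT low-Pi libraries. In Os1400, SPX5 measured 5.31, 3.26, and 3.58 FPKM at +Pi and 362, 277, and 331 FPKM at low-Pi. All low-Pi libraries were far above all +Pi libraries, and within low-Pi every Os1400 library was below every WT library. By abundance, SPX5 moved from place 14985 to 18189 of 41620 genes at +Pi to place 47 to 172 in low-Pi WT and place 307 to 403 in low-Pi Os1400.

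SPX1 followed the same course from a higher starting level. It measured 13.5, 14.1, and 18.7 FPKM in WT and 15.5, 8.76, and 10.5 FPKM in Os1400 at +Pi, where the genotypes overlapped. At low-Pi it measured 657, 480, and 820 FPKM in WT and 182, 155, and 159 FPKM in Os1400, without overlap. SPX1 and SPX5 together made up 20.7 to 34.7% of the summed FPKM of the 6 genes at +Pi, and 95.2 to 96.4% in low-Pi WT and 89.4 to 91.1% in low-Pi Os1400.

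SPX2 differed in level between the genotypes at +Pi. It measured 5.74, 2.82, and 5.62 FPKM in WT +Pi, from 306, 154, and 252 counts. In Os1400 +Pi it measured 0.043, 0.37, and 0 FPKM, from 2, 20, and 0 counts, so the highest Os1400 library lay below the lowest WT library. At low-Pi, SPX2 reached 32.1, 24.9, and 41.5 FPKM in WT and 14.1, 9.30, and 13.4 FPKM in Os1400.

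SPX3 was at or near 0 with sufficient Pi. It had 0, 28, and 0 counts in WT +Pi and 0, 11, and 0 counts in Os1400 +Pi. At low-Pi it measured 14.7, 14.3, and 51.0 FPKM in WT and 11.1, 8.47, and 8.46 FPKM in Os1400. Replicate 3 of low-Pi WT was far above its group, and its root markers summed to 8057 FPKM against 2041 and 2333 FPKM in the other replicates. The genotypes did not overlap.

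SPX4 was the steady member of the family. It measured 15.8, 16.2, and 14.1 FPKM in WT +Pi, 15.7, 15.4, and 13.8 FPKM in Os1400 +Pi, 24.2, 13.4, and 17.1 FPKM in WT low-Pi, and 12.7, 17.4, and 14.7 FPKM in Os1400 low-Pi. All 4 groups overlapped. SPX-MFS3 ran opposite to the induced members, with 24.7, 22.5, and 23.8 FPKM in WT +Pi and 8.19, 10.5, and 8.51 FPKM in WT low-Pi. In Os1400 it measured 27.0, 30.0, and 26.7 FPKM at +Pi and 15.6, 15.9, and 17.8 FPKM at low-Pi, which left every Os1400 library above every WT library at the same Pi supply.

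**Figure D1:**
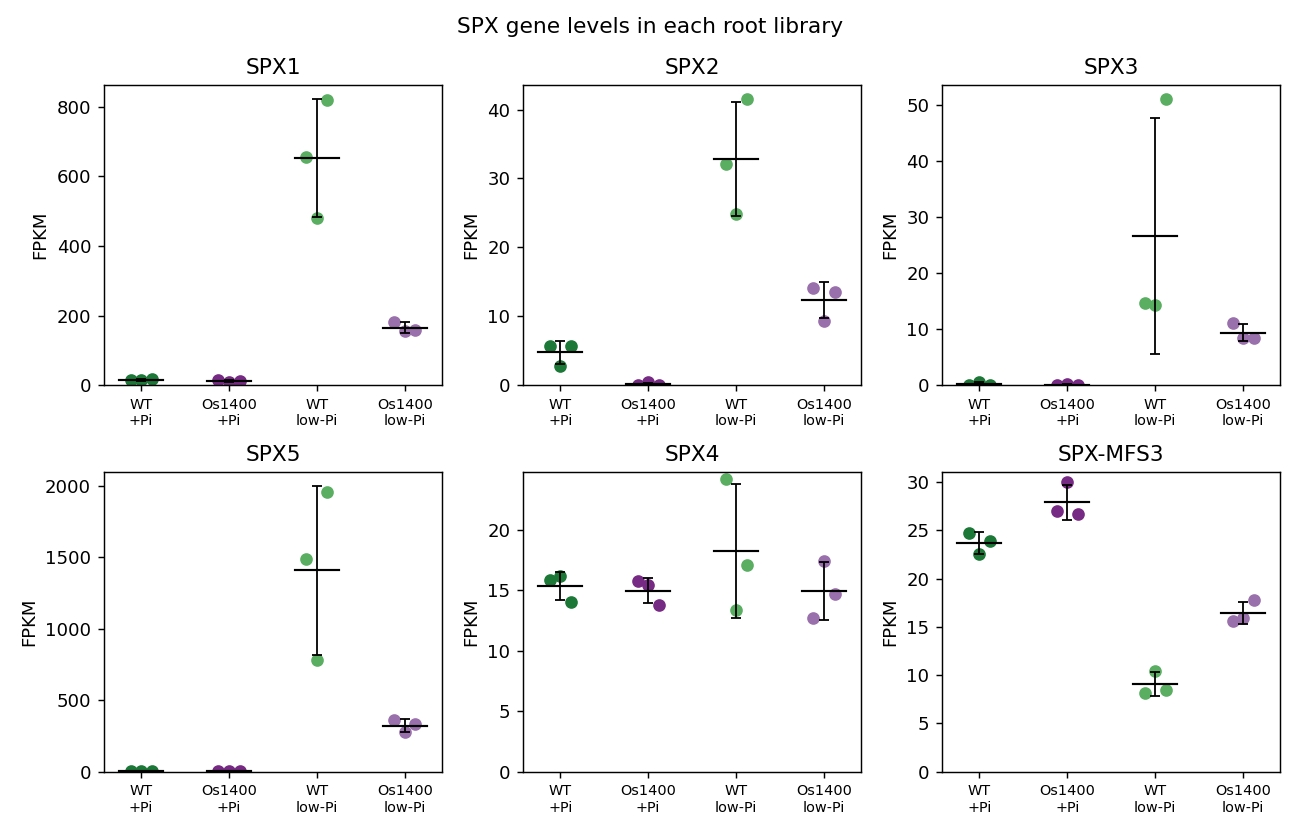
Level of each SPX gene (FPKM, linear axis from 0) in the 4 groups, with 1 point per library, a horizontal line at the group mean, and bars of 1 SD (n = 3). SPX1, SPX2, SPX3, and SPX5 are highest in low-Pi WT, SPX4 stays between 12.7 and 24.2 FPKM, and SPX-MFS3 is lowest in low-Pi WT.

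The order of the members changed with Pi supply. By median FPKM, SPX-MFS3 was first in both genotypes at +Pi, followed by SPX4 and SPX1, whose ranges overlapped. In WT +Pi, SPX2 and SPX5 came next, also with overlapping ranges, and SPX3 was last. In Os1400 +Pi, SPX5 followed SPX1, and SPX2 and SPX3 overlapped near 0. SPX5 and SPX1 led at low-Pi, with overlapping ranges in WT and separate ranges in Os1400. SPX-MFS3 came last in low-Pi WT, below SPX3, but directly after SPX1 in low-Pi Os1400, where its range overlapped that of SPX4.

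How strongly Pi supply changed each member was tested with the quasi-likelihood test of edgeR, and FDR denotes the p-value adjusted by Benjamini-Hochberg over all genes of a comparison. The SE of an edgeR log2 fold change was taken as its absolute value over the square root of the F statistic of that test. In WT, 5 of 6 members passed the FDR threshold of 0.05 at low-Pi against +Pi, 4 higher and 1 lower, where 23.7% of 25163 genes passed in either direction, 8.46% higher and 15.2% lower. SPX5 rose 334-fold, by 8.38 ± 0.53 on the log2 scale (± SE, edgeR FDR = 0.0024, n = 3 per group), and had the 15th highest log2 fold change of all tested genes. SPX1 rose by a log2 value of 5.36 ± 0.29 (edgeR FDR = 0.0024), and SPX2 rose 6.71-fold (log2 2.75 ± 0.40, edgeR FDR = 0.0094). SPX-MFS3 was 2.69-fold lower (log2 -1.43 ± 0.19, edgeR FDR = 0.0081). SPX4 differed by 0.20 ± 0.31 on the log2 scale and did not pass (edgeR FDR = 0.75). Its groups were the only ones of the 6 members that overlapped in scaled counts, and 48.7% of all genes had groups without overlap.

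SPX3 rose by a log2 value of 6.93 ± 1.92 in WT, close to the threshold (edgeR FDR = 0.045). It passed in 2 of 6 fits that each left out 1 library, with FDR values of 0.034 to 0.11. Without WT +Pi replicate 2, the remaining +Pi libraries held no SPX3 count and the fitted log2 value of 12.75 depends on the prior count. Against a floor of 3 counts per library, the low-Pi WT mean was then at least 353-fold higher. That mean was raised by replicate 3, at 51.0 FPKM against 14.7 and 14.3 FPKM in the rest of the group.

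In Os1400, the same 5 of 6 members passed at low-Pi against +Pi, in the same directions, where 29.6% of 27647 genes passed, 15.6% higher and 14% lower. SPX5 rose 85.8-fold (log2 6.42 ± 0.23, edgeR FDR = 2.9e-06), and SPX1 rose 15.3-fold (log2 3.94 ± 0.22, edgeR FDR = 4.4e-06). SPX2 rose 91.7-fold from its very low +Pi level (log2 6.52 ± 0.76, edgeR FDR = 0.00021), and by a log2 value of 9.16 without Os1400 +Pi replicate 2, which held 20 of the 22 SPX2 counts of that group. SPX3 rose by 6.84 ± 0.84 on the log2 scale (edgeR FDR = 0.0003). Without Os1400 +Pi replicate 2, no SPX3 count remained at +Pi and the low-Pi mean was at least 138-fold higher against the same floor. SPX-MFS3 was 1.58-fold lower (log2 -0.66 ± 0.12, edgeR FDR = 0.0024), and SPX4 again did not pass, at a log2 value of 0.10 ± 0.17 (edgeR FDR = 0.72). The groups of 5 members did not overlap, as was so for 46.3% of all genes. This comparison does not use the low-Pi WT libraries. Its 5 calls held in each of the 6 fits that left out 1 library. The median log2 fold change was 4.05 over the 6 members in WT and 5.18 in Os1400, against -0.28 and -0.0028 over all genes tested. SPX1, SPX5, and SPX-MFS3 nevertheless changed less in Os1400 than in WT, while SPX2 changed more, from an Os1400 +Pi level that rested on 22 counts.

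**Figure D2:**
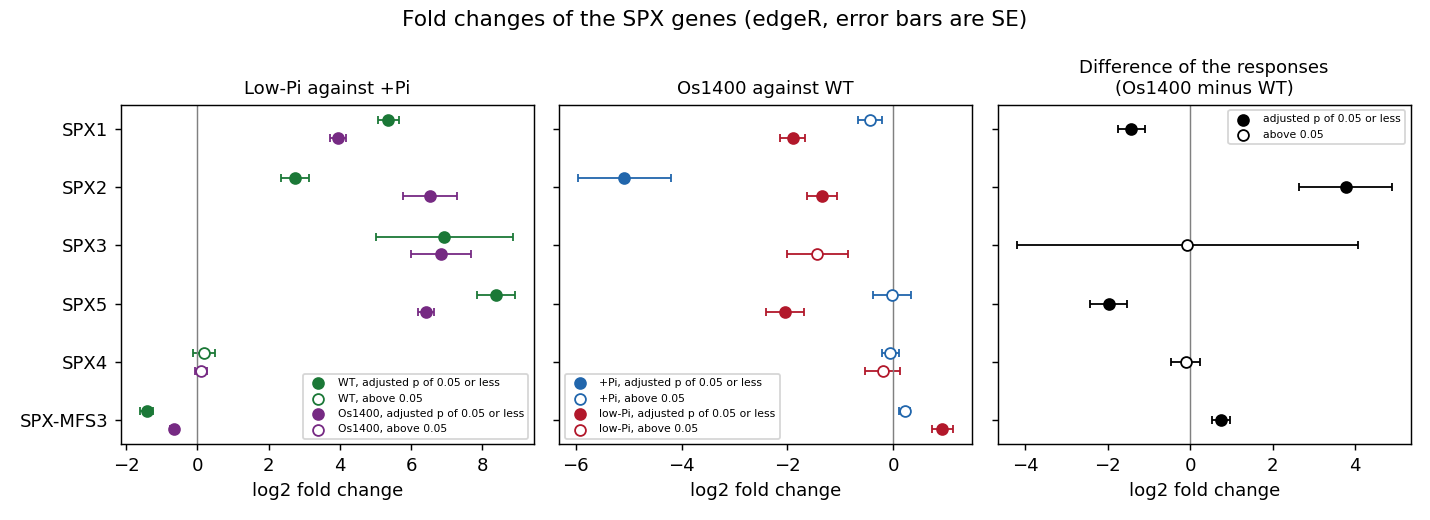
Log2 fold changes of the SPX genes from edgeR (points, with bars of 1 SE derived from the F statistic) for low-Pi against +Pi in WT and Os1400, for Os1400 against WT at +Pi and low-Pi, and for the difference of the Pi responses. Filled points have an adjusted p of 0.05 or less. SPX3 was not tested between the genotypes at +Pi. SPX2 is the filled point at -5.08 at +Pi, and SPX1 and SPX5 lie near -2 at low-Pi.

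With sufficient Pi, 1 of the 5 members tested differed between Os1400 and WT, where 0.958% of 27777 genes passed, 0.54% higher and 0.418% lower. SPX2 was 33.8-fold lower in Os1400 (log2 -5.08 ± 0.87, edgeR FDR = 0.013, n = 3 per group), with the 15th lowest log2 fold change of all tested genes. Over each group of 3 libraries, it had 712 counts in WT and 22 in Os1400. The SPX2 call was lost without WT +Pi replicate 1 (edgeR FDR = 0.084), without WT +Pi replicate 3 (edgeR FDR = 0.089), and in a fit of all 12 libraries (edgeR FDR = 0.10). Without Os1400 +Pi replicate 2 the log2 fold change was -7.71. SPX1 differed by a log2 value of -0.43 ± 0.22 (edgeR FDR = 0.56), SPX4 by -0.06 ± 0.16 (edgeR FDR = 0.95), and SPX5 by -0.03 ± 0.35 (edgeR FDR = 0.99). SPX-MFS3 differed by 0.21 ± 0.11 (edgeR FDR = 0.54), although its groups did not overlap. Groups of 2 of the 6 members, SPX2 and SPX-MFS3, did not overlap in CPM, the counts scaled to library size, as was so for 16.9% of all genes. SPX3 had too few counts at +Pi to be tested.

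Of the 4 annotated genes on each side of SPX2 on chromosome 2, 3 (Os02g0201800, Os02g0202000, and Os02g0202400) were at 0 FPKM in every WT +Pi library, so a lower level in Os1400 could not be seen there. The next gene, Os02g0202250, ranged from 10.1 to 11.4 FPKM in WT +Pi and from 11.4 to 12.8 FPKM in Os1400 +Pi. Os02g0202500, which lies 4 genes after SPX2, ranged from 155 to 180 FPKM in WT +Pi and from 125 to 146 FPKM in Os1400 +Pi, lower in Os1400 without overlap. At low-Pi it ranged from 274 to 572 FPKM in WT and from 141 to 228 FPKM in Os1400, again without overlap. On the other side, Os02g0201500 ranged from 2.96 to 3.91 FPKM in WT +Pi and from 2.03 to 3.35 FPKM in Os1400 +Pi. At low-Pi, Os02g0201500 went the opposite way, from 0 to 1.56 FPKM in WT and from 5.85 to 7.01 FPKM in Os1400. Os02g0201900 and Os02g0202300 overlapped between the genotypes at +Pi.

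**Figure D3:**
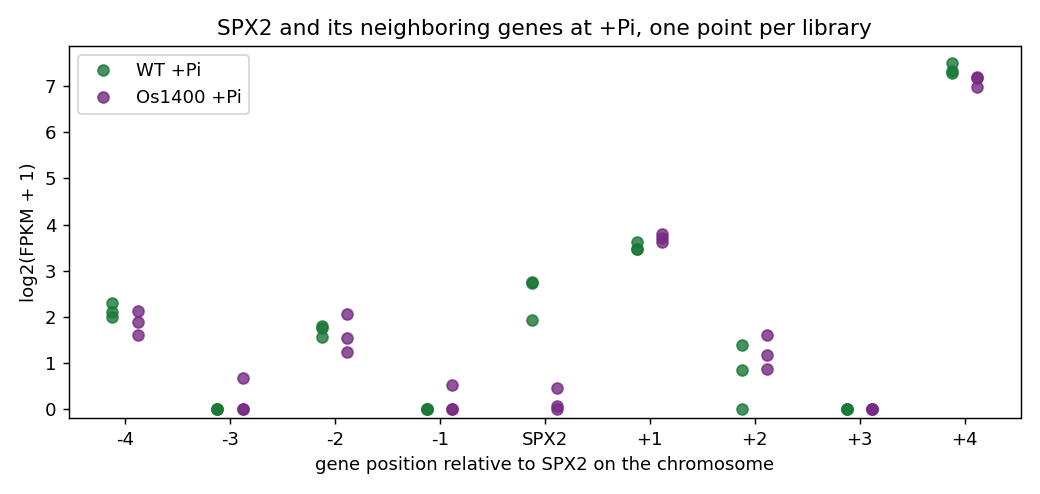
Level of SPX2 and of the 4 annotated genes on each side of it, as log2(FPKM + 1), with 1 point per +Pi library and genes ordered along the chromosome. The Os1400 points lie under all WT points at SPX2 (0 to 0.37 against 2.82 to 5.74 FPKM) and, by less, at position +4 (125 to 146 against 155 to 180 FPKM), and positions -3, -1, and +3 are at 0 in WT.

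Under low-Pi, 4 of 6 members differed between the genotypes, 3 lower and 1 higher in Os1400, where 16.9% of 25426 genes passed, 4.47% lower and 12.4% higher. SPX5 was 4.13-fold lower in Os1400 (log2 -2.05 ± 0.35, edgeR FDR = 0.018, n = 3 per group), SPX1 was 3.74-fold lower (log2 -1.90 ± 0.24, edgeR FDR = 0.018), and SPX2 was 2.54-fold lower (log2 -1.35 ± 0.28, edgeR FDR = 0.022). SPX-MFS3 was 1.90-fold higher (log2 0.93 ± 0.20, edgeR FDR = 0.025). SPX3 did not pass, at a log2 value of -1.44 ± 0.58 (edgeR FDR = 0.17), nor did SPX4, at -0.21 ± 0.32 (edgeR FDR = 0.79). All members but SPX4 had groups that did not overlap, which 41% of all genes shared.

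These genotype calls were sensitive to single libraries of Os1400. Without Os1400 low-Pi replicate 1 or 3, 0 of 6 members and 0 of all genes passed in edgeR, although 4 members had an unadjusted p under 0.05, and without replicate 2 only SPX1 passed. The log2 fold changes without 1 library stayed between -2.04 and -1.70 for SPX1 and between -2.30 and -1.73 for SPX5. With libraries scaled to the 4 reference genes, an alternative chosen after seeing the data, SPX1 (log2 -1.30) and SPX-MFS3 passed, while SPX5 (log2 -1.44, edgeR FDR = 0.085) and SPX2 (log2 -0.71, edgeR FDR = 0.36) did not. That scaling moved the median log2 fold change of all genes from 0.22 to 0.86. Relative to the median of all genes, SPX5 was at a log2 value of -2.27 and SPX1 at -2.13 in the TMM-scaled comparison.

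A fit of all 12 libraries with an interaction term asked whether Os1400 and WT differed in the response to low-Pi itself. Of 6 members, 4 passed, 2 lower and 2 higher, where 13.4% of 28691 genes passed, 2.82% lower and 10.6% higher. The rise of SPX5 was smaller in Os1400 by 1.98 ± 0.45 on the log2 scale (-1.98, edgeR FDR = 0.014), and that of SPX1 was smaller by 1.43 ± 0.33 (-1.43, edgeR FDR = 0.015). Both calls held in each of the 12 fits without 1 library. They were lost with the reference gene scaling, at log2 values of -1.58 for SPX5 (edgeR FDR = 0.10) and -1.06 for SPX1 (edgeR FDR = 0.16). The rise of SPX2 was larger in Os1400 by 3.77 ± 1.12 (edgeR FDR = 0.048), and the fall of SPX-MFS3 was smaller by 0.75 ± 0.21 (edgeR FDR = 0.039). The SPX2 call held in 4 of 12 fits without 1 library, and its size moved to 6.37 without Os1400 +Pi replicate 2 and to 0.96 with limma on log2(FPKM + 1), a scale that understates changes of low genes. The SPX-MFS3 call held in 2 of 12 fits. For SPX4 the difference was -0.11 ± 0.35 (edgeR FDR = 0.90), and for SPX3 it was -0.07 with an SE of 4.14, too wide to compare the responses.

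Ratios of members within a library do not depend on how libraries are scaled, and these were chosen after the values were seen. The ratio of SPX5 to SPX1 FPKM was 0.37, 0.19, and 0.24 in WT +Pi and 0.34, 0.37, and 0.34 in Os1400 +Pi. At low-Pi it was 2.26, 1.63, and 2.38 in WT and 1.98, 1.79, and 2.09 in Os1400. SPX1 was thus the more abundant of the pair in every +Pi library and SPX5 in every low-Pi library, with overlapping genotypes at both supplies. Relative to SPX4, SPX1 measured 27.1, 35.9, and 47.9 in low-Pi WT and 14.4, 8.91, and 10.8 in low-Pi Os1400, without overlap. Relative to SPX4, SPX-MFS3 measured 0.34, 0.78, and 0.50 in low-Pi WT and 1.23, 0.91, and 1.21 in low-Pi Os1400, again without overlap. SPX2 over SPX4 did not overlap either, at 1.32 to 2.43 in low-Pi WT and 0.53 to 1.11 in low-Pi Os1400. SPX3 over SPX4 did overlap, at 0.60, 1.07, and 2.98 in low-Pi WT and 0.87, 0.49, and 0.57 in low-Pi Os1400.

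**Figure D4:**
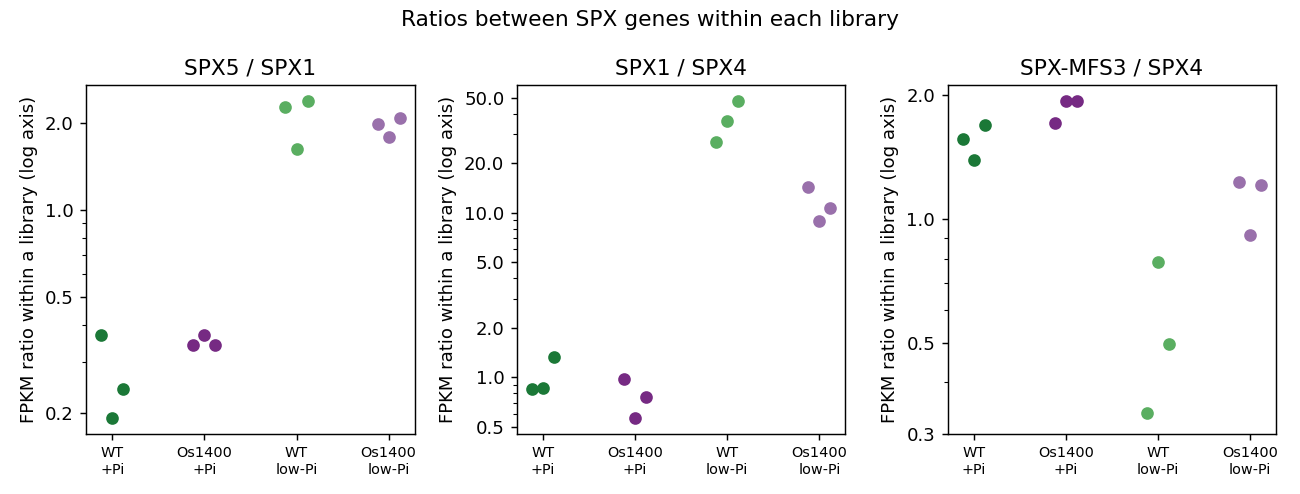
FPKM ratios within each library (log axis, 1 point per library) for SPX5 over SPX1, SPX1 over SPX4, and SPX-MFS3 over SPX4 in the 4 groups. SPX5 over SPX1 lies under 0.38 in all +Pi libraries and above 1.6 in all low-Pi libraries, while the 2 plotted ratios to SPX4 separate the genotypes at low-Pi.

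The 9 other genes with an SPX domain include the PHO1 family of Pi exporters (PHO1;1 to PHO1;3, named as phosphate transporters in the tables) and the remaining SPX-MFS genes, and 6 of the 9 could be tested. In WT, 0 of 6 passed at low-Pi against +Pi in edgeR, with 1 at an unadjusted p under 0.05, and 1, PHO1;2, passed in DESeq2. Over all genes, 23.7% passed in WT and 29.6% in Os1400 (15.6% higher) in edgeR. In Os1400, 3 of 6 passed, all higher, namely PHO1;3 (log2 1.25 ± 0.26, edgeR FDR = 0.0051), the cis-natural antisense transcript of PHO1;1 (log2 1.95 ± 0.33, edgeR FDR = 0.0016), and SPX-MFS2 (log2 0.67 ± 0.22, edgeR FDR = 0.041). The antisense value is uncertain, since its reads cannot be told apart from those of PHO1;1 without strand. SPX-MFS2 was also higher in Os1400 than in WT at low-Pi (log2 1.83 ± 0.46, edgeR FDR = 0.04). PHO1;2, which loads Pi into the xylem, had the highest level of the 9, at 165 to 272 FPKM over the 12 libraries, and passed in no comparison in edgeR.

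Of 25 further genes of the Pi pathway, 24 were in the expression table. At low-Pi against +Pi, 10 of 17 tested were higher and 2 lower in WT, and 12 of 19 were higher and 3 lower in Os1400. Over all genes, 8.46% were higher and 15.2% lower in WT, and 15.6% were higher and 14% lower in Os1400. A total of 12 genes passed in both genotypes, all in the same direction, and the share of all genes that did so is not given here. Among the regulators, PHR1, a MYB activator of Pi starvation genes, fell in WT (log2 -2.45 ± 0.27, edgeR FDR = 0.0048) and in Os1400 (log2 -0.71 ± 0.14, edgeR FDR = 0.0035). The difference of these responses passed as well (log2 1.73 ± 0.28, edgeR FDR = 0.0028). PHR4 went the other way and rose in WT (log2 1.57 ± 0.35, edgeR FDR = 0.021) and in Os1400 (log2 1.45 ± 0.17, edgeR FDR = 0.00019). PHR3 fell in Os1400 (log2 -1.87 ± 0.29, edgeR FDR = 0.0011) and did not pass in WT (log2 -0.41 ± 1.60, edgeR FDR = 0.91). PHR2, the main partner of the SPX proteins, did not pass in WT (log2 -0.75 ± 0.39, edgeR FDR = 0.26) or Os1400 (log2 -0.31 ± 0.12, edgeR FDR = 0.078). LEAF TIP NECROSIS 1, the rice PHO2 that marks Pi transporters for degradation, fell in both (log2 -3.79 ± 0.52 in WT and -1.88 ± 0.13 in Os1400). The Pi transporter gene PT6 rose in both (log2 8.21 ± 0.37 in WT and 6.78 ± 0.36 in Os1400), as did PAP23, an acid phosphatase gene (log2 6.87 ± 0.56 in WT and 5.24 ± 0.22 in Os1400). No gene of this list passed between the genotypes at +Pi in edgeR or DESeq2 (0 of 17, with 2 at an unadjusted p under 0.05 in edgeR), where 0.958% of all genes passed in edgeR. At low-Pi, 3 of 19 were lower and 1 higher in Os1400, where 4.47% of all genes were lower and 12.4% higher.

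The genes whose levels ran most like those of a member were found by Pearson correlation of log2(FPKM + 1) over the 12 libraries, among 6969 named genes with a mean of at least 1 FPKM. The points fall into the 4 groups and share library depth, so the coefficients are descriptive. SPX5 was closest to PAP23 (r = 0.997) and to PHOSPHATE-LIMITATION INDUCIBLE GENE 1 (r = 0.994). SPX1 was closest to RAPID ALKALIZATION FACTOR 37 (r = 0.992), followed by SPX6 (r = 0.991), an SPX gene whose description lacks the domain entry. SPX6 was also second for SPX3 (r = 0.988), after NIGT1 (r = 0.992), a nitrate-inducible repressor. SPX6 had median levels of 0.50 FPKM at +Pi, 283 FPKM in low-Pi WT, and 58.1 FPKM in low-Pi Os1400. SPX2 was closest to the auxin efflux gene PIN9 (r = 0.954) and to a gene of 3-hydroxy-3-methylglutaryl-CoA reductase (r = 0.943). SPX-MFS3 was closest to CA2+-ATPASE 9 (r = 0.991) and AUTOPHAGY ASSOCIATED GENE 18E (r = 0.991), both lower at low-Pi. SPX4 had the weakest matches, MAP70.2 (r = 0.900) and PLEIOTROPIC DRUG RESISTANCE 1 (r = 0.873). Both had low medians, of 0.53 and 0 FPKM at +Pi and 0.40 and 0.43 FPKM in low-Pi Os1400. In low-Pi WT their medians were 2.26 and 2.96 FPKM. By Spearman correlation, CA2+-ATPASE 9 stayed first for SPX-MFS3 and MAP70.2 for SPX4. PAP23 was in place 46 for SPX5 and RAPID ALKALIZATION FACTOR 37 in place 96 for SPX1. PLEIOTROPIC DRUG RESISTANCE 1 was in place 62 for SPX4.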

How the data were processed

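Gene levels were taken from the authors' deposited count tables (unnormalized counts, the +Pi and low-Pi libraries in separate tables) and from the authors' deposited FPKM table. The submitters' processing notes name HISAT2 2.0.5, featureCounts 1.5.0-p3, and DESeq2. Genome build, annotation release, and strand setting are not given in the sources used here. The deposited FPKM equal counts over length and total counts times 1 constant per library (0.902 to 1.36, highest in low-Pi WT). The authors' fold changes and p-values between genotypes, and 28 further per-sample columns, were not used. Unannotated transcripts (4209 and 4013 rows of the count tables) were kept in the fits.

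Libraries were grouped by genotype and Pi supply from their labels. Counts were tested in edgeR 4.0.16 (R 4.3.3) with TMM normalization, filterByExpr (10 counts, 15 in total), and the quasi-likelihood test, on the 6 libraries of a comparison and on 12 for the interaction, with Benjamini-Hochberg adjustment and a threshold of 0.05. Tables were joined on the gene identifier, and 30742 genes were in both. A count of 3 corresponds to 0.073 to 0.106 CPM, and the reads carry no molecular identifiers, so this floor covers counting error only. The tests of edgeR, DESeq2, and limma were first run on simulated counts with a genotype difference within each Pi supply. The comparisons of Pi supply, the interaction, and the other alternatives were not simulated. Alternatives were DESeq2 1.42.0, limma 3.58.1 on log2(FPKM + 1) and log2(FPKM + 0.1), upper-quartile scaling, other filters, a fit of all 12 libraries, genes of 1 table kept at 0, a replicate block, leaving out each library, and, chosen after seeing the data, scaling to 4 reference genes.

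The members and lists were chosen with earlier results of these data known. The genes named are the 6 members, other genes with the SPX domain, a Pi pathway list, and the 2 named genes with the highest correlation to each member. Of the pathway and SPX lists, values are given for part of the genes called and for PHR2 and PHO1;2, which were picked after their values were seen, as were the genes beside SPX2 described singly. No sequences were used here.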

Additional observations from a re-analysis of the deposited data

Results flagged for a closer look

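The response of 4 members to low-Pi differed between Os1400 and WT by the interaction test of edgeR. On the log2 scale, Os1400 minus WT was -1.43 for SPX1 and -1.98 for SPX5, whose rises were smaller in Os1400 in all fits without 1 library. It was 3.77 for SPX2, whose +Pi level in Os1400 rested on 22 counts over 3 libraries, and moved to 6.37 without Os1400 +Pi replicate 2 and to 0.96 with limma on log2(FPKM + 1). It was 0.75 for SPX-MFS3, whose fall was smaller in Os1400. The low-Pi WT libraries, in which fewer genes were detected and the summed reference genes were higher, enter all 4 differences. Their part was not tested. With libraries scaled to the reference genes, SPX-MFS3 alone of the 4 passed. With groups of 3 libraries, no test for outlying libraries was made.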

How the results depend on the processing

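The count of members called stayed within 1.5 times of the reported one except as follows. In Os1400, low-Pi against +Pi called 3 of 4 members tested when at least 10 counts were required in every library, since SPX2 and SPX3 were then left out. Between the genotypes at +Pi, 0 members were called with that filter, which left out SPX2 (0 at an unadjusted p under 0.05), and 0 in the fit of all 12 libraries (1 at an unadjusted p under 0.05), against 1 in edgeR and in DESeq2. At low-Pi, 2 of the 4 calls remained without a filter on low counts, with a replicate block (SPX1 and SPX5 in both), and with scaling to 4 reference genes. For the difference of the Pi responses, 2 calls (SPX1 and SPX5) remained with upper-quartile scaling, at least 10 counts, limma on log2(FPKM + 1), and the replicate block, and 1 (SPX-MFS3) with the reference genes. Leaving out 1 library gave 4 to 5 calls in WT, 5 to 5 in Os1400, 0 to 1 at +Pi, 0 to 4 at low-Pi, and 2 to 4 for the difference. Apart from the filters, the cause was not tested.

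Directions changed only for values that passed no threshold. With the reference genes, SPX4 was -0.77 in WT, -0.46 in Os1400, 0.14 at +Pi, 0.45 at low-Pi, and 0.31 for the difference, SPX5 was 0.15 at +Pi, and SPX3 was 0.11 for the difference. With limma, SPX4 in Os1400 was -0.011 and -0.012 at the pseudocounts of 1 and 0.1, and SPX5 at +Pi was 0.0039 and 0.0087. Without 1 library, SPX4 ranged from -0.054 to 0.34 in WT, -0.031 to 0.20 in Os1400, -0.35 to 0.043 at low-Pi, and -0.27 to 0.13 for the difference, SPX5 at +Pi from -0.27 to 0.14, and SPX3 for the difference from -6.02 to 4.53.

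Counts over all genes moved too. In WT they went from 5962 to 9776 in the fit of all 12 libraries and 1943 with the replicate block, and in Os1400 from 8191 to 2559 in the former. At +Pi they went from 266 to 648 with DESeq2, 469 without a filter, and 33 in the fit of all 12 libraries. At low-Pi they went from 4301 to 6908 with DESeq2, 1274 without a filter, 2553 with at least 10 counts, 7818 in the fit of all 12 libraries, and 1045 with the replicate block. For the difference they went from 3838 to 2252 with at least 10 counts. Without 1 library they ranged from 1830 to 9043 in WT, 5830 to 8039 in Os1400, 133 to 254 at +Pi, 0 to 7168 at low-Pi, and 2619 to 6658 for the difference. Scaling to the reference genes moved the median log2 fold change of all genes from -0.28 to -1.21 in WT and from -0.0028 to -0.54 in Os1400, and the share of calls that were higher from 35.7 to 7.04% in WT, 52.8 to 14.4% in Os1400, 56.4 to 79.9% at +Pi, 73.6 to 96.0% at low-Pi, and 78.9 to 95.2% for the difference. DESeq2 gave 62.7% at low-Pi and 67.0% for the difference, and upper-quartile scaling 68.5% for the difference. The majority turned with at least 10 counts in every library (55.5% in WT, 48.3% at +Pi, 42.0% at low-Pi, 47.7% for the difference) and with the replicate block (55.1% in WT and 38.2% at low-Pi).

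Libraries with the same replicate number had correlated deviations of -0.06 to 0.32, not above 0.1 in every pair of any comparison, so the numbers were not treated as pairs. SPX3 at +Pi, with 0 counts in 4 of 6 libraries, is at the limit of this depth.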
